A study of Mus musculus with 9 samples.

Results

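The genes described are 32 that build the ribosome in the nucleolus, chosen by name with earlier results of these data known. They include 5 nucleolar scaffold and regulatory proteins, 3 subunits of RNA polymerase I and 7 proteins of small nucleolar ribonucleoprotein particles (snoRNPs). The rest are 7 assembly factors of the small ribosomal subunit, 8 of the large subunit, and 2 RNA helicases. These are 32 of the 24493 genes in the table, and all 32 passed the filter on low values. The samples were mouse pancreatic tumor cells of the cell line 6419c5, a single tumor cell clone of the strain C57BL/6, taken from late stage tumors implanted under the skin, so every sample comes from 1 clone grown in animals. There were 3 groups of 3 samples: wild type (WT) and a pair of Usp22 knockouts, Usp22-KOA and Usp22-KOB, each derived from that same clone and grown the same way. The labels give no age and no agent, the meaning of A and B is left unstated, and nothing tells whether the samples of a group came from separate mice, so p-values measure only how far these samples spread, and that spread may be technical.

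Polyadenylated RNA was sequenced, and the values are TPM, an abundance corrected for transcript length and scaled to the same total in every library. Read depth cannot be recovered from such values, so it is unknown here. Each group mean rests on 3 samples, and in the model fitted below all 9 samples share 1 estimate of the spread. Usp22, the gene targeted, encodes a ubiquitin protease that works within SAGA, a coactivator complex of transcription. It had 55.1, 54.5 and 56.4 TPM in WT, against 9.77, 8.46 and 10.1 TPM (Usp22-KOA) and 11.8, 14.9 and 14.1 TPM (Usp22-KOB), which is 17.1% and 24.5% of the WT mean (exact two-sided permutation test of 6 knockout against 3 WT samples, p = 0.0238, the smallest that 84 splits allow). Without any 1 WT sample the exact permutation p was 0.0714, again the smallest that the remaining samples allow. The difference was then -2.21 to -2.18 on the log2 scale. Of the 9 epithelial markers checked against the tissue label, none was listed at 0 in any library, but 7 were called lower in Usp22-KOA (Krt19 was higher) and 5 in Usp22-KOB, with median log2 differences of -2.6 and -0.48. Epcam, an adhesion protein of epithelial cells, fell from 379 ± 18.4 TPM in WT to 37.7 ± 15.2 in Usp22-KOA and to 31.3 ± 5.31 in Usp22-KOB, and the mucin Muc1 from 603 ± 24 to 49.5 ± 3.84 and 139 ± 23.1 TPM (SD, n = 3 each). The keratin Krt8 was not called, at 2495 ± 105 TPM in WT, while the knockouts had 2474 ± 129 (Usp22-KOA) and 2634 ± 318 TPM (Usp22-KOB; SD, n = 3 each). The sum of the 9 markers, most of it keratins, was 8463 to 8995 TPM in WT, against 6308 to 7089 (Usp22-KOA) and 6950 to 8514 TPM (Usp22-KOB).

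Markers of other cells were present and differed between the groups, and sums are given for WT, Usp22-KOA and Usp22-KOB in that order. The 10 leukocyte markers summed to 319 to 556, 408 to 861 and 772 to 1578 TPM, with 1 called higher in Usp22-KOA and 7 called higher in Usp22-KOB. The 10 macrophage markers summed to 2074 to 3226, 1392 to 3492 and 5941 to 10528 TPM, with 1 lower in Usp22-KOA and 9 higher in Usp22-KOB. The 14 T and NK cell markers, of which Ncr1 was listed at 0 in some libraries, summed to 11.4 to 21.4, 53.3 to 131 and 31.9 to 86.8 TPM, with 11 and 10 of the 13 tested higher. The 7 mast cell markers summed to 149 to 182, 1190 to 2467 and 93.5 to 123 TPM. All 7 were higher in Usp22-KOA, and in Usp22-KOB 4 were higher (Cpa3, Tpsb2, Cma1 and Fcer1a) while Mcpt4, most of the WT sum, fell from 160 ± 15.8 to 55.9 ± 0.93 TPM (SD, n = 3 each). The 9 fibroblast markers summed to 490 to 905, 240 to 292 and 787 to 1212 TPM, with 6 lower and 1 higher in Usp22-KOA and 4 higher in Usp22-KOB. The 10 endothelial markers summed to 54.8 to 73.8, 13.3 to 20.7 and 44.8 to 67.5 TPM, with all 9 tested lower in Usp22-KOA and 1 in Usp22-KOB. Their part in the results was not tested, and in such bulk samples fewer cells of a type and less RNA per cell cannot be told apart.

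Ribosomes are made in the nucleolus, where RNA polymerase I copies the ribosomal DNA into a long precursor RNA. SnoRNPs modify and help cut that precursor, box C/D particles by methylation and box H/ACA particles by pseudouridylation, while a succession of assembly factors and helicases folds it with ribosomal proteins into a small and a large subunit. The program is known to be among the main targets of the transcription factor MYC, and dividing tumor cells rely on it.

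Differences below are between means of log2(TPM + 1) and are followed by their SE, both from limma, a linear model fitted to the 13843 genes that averaged 1 TPM or more, and a gene is called where its Benjamini-Hochberg adjusted p lies under 0.05. The question of the comparison with WT is how expression differs in cells without intact Usp22. In the mean of both knockouts, 13 of the 32 genes fell, 2 rose and 17 were not called. Over all genes tested, 50% were called, 24.1% lower and 25.9% higher, against 46.9% of the 32, 40.6% lower and 6.25% higher. The share called lay near the background. Their median difference was -0.18, against 0.0087 over all genes tested.

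The knockouts did not carry this equally. In Usp22-KOA, 14 genes fell and 2 rose (50% called, where 56.3% of all genes tested were called, 26.9% lower and 29.4% higher). In Usp22-KOB, 7 fell and 3 rose (31.2% called, where 37.1% of all genes were called, 18.4% lower and 18.7% higher). The medians were -0.19 and -0.095, beside 0.019 and -0.0075 over all genes. These comparisons share the WT samples. The direct comparison of Usp22-KOA with Usp22-KOB, which tests the difference between the knockouts, called 15 of the 32 lower and 2 higher in Usp22-KOA (53.1% called, where 51.7% of all genes tested were called, 24.2% lower and 27.5% higher). The Usp22-KOB count rested on single libraries: 4 genes were called lower without WT 2, without Usp22-KOB 1 or without Usp22-KOB 2, and 11 without Usp22-KOB 3. In Usp22-KOB 3, 13 of the 32 genes were below the WT mean, against 25 and 24 in Usp22-KOB 1 and 2 and 25 to 27 in the Usp22-KOA samples. WT samples differed too: 30 genes were below that mean in WT 3, by a median of only -0.056, and 10 and 9 in WT 1 and WT 2, while the medians in Usp22-KOA were -0.142 to -0.166 and in Usp22-KOB -0.146, -0.122 and 0.026.

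**Figure D1:**
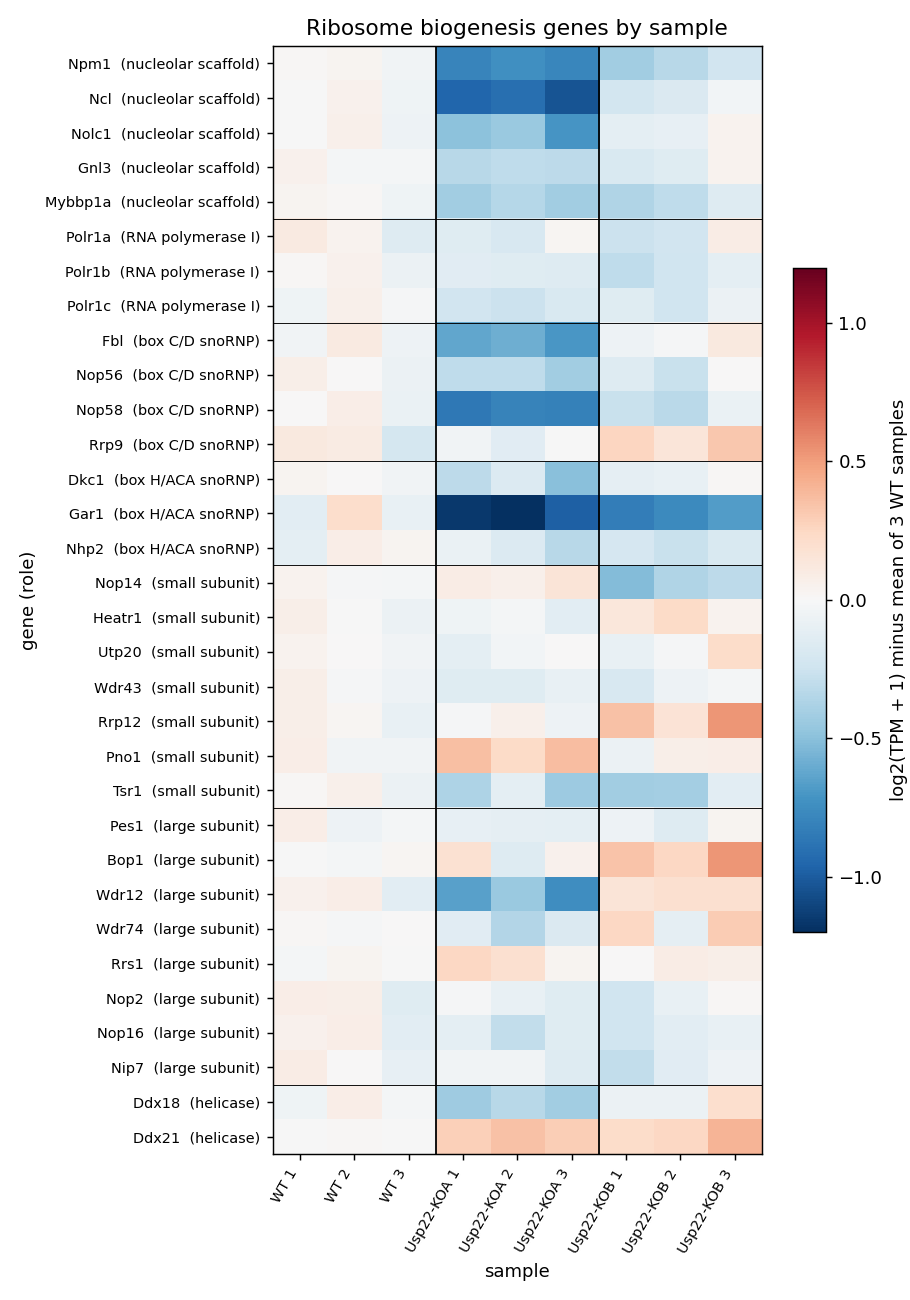
Each cell is the log2(TPM + 1) of 1 gene (rows, with its role) in 1 sample (columns, 3 per group) minus the mean of the 3 WT samples, with blue lower and red higher. Npm1, Ncl, Fbl, Nop58, Gar1 and Wdr12 are lower in all 3 Usp22-KOA samples than in any WT sample, and Gar1, Npm1 and Nop58 are also lower in all 3 Usp22-KOB samples.

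Summed over the 32 genes, the level was 2414 to 2582 TPM in the WT samples, 1775 to 1826 in Usp22-KOA and 2110 to 2371 in Usp22-KOB, so the 3 groups did not overlap. Npm1 alone gave 803 to 849 TPM of the WT sums. The mean log2(TPM + 1) of the 32 genes, which weighs abundant genes less, overlapped between WT and Usp22-KOB. It was 5.437 to 5.534 in WT, 5.215 to 5.250 in Usp22-KOA and 5.369 to 5.531 in Usp22-KOB. In Usp22-KOA, 18 of the 32 genes had all 3 values below all 3 WT values and 3 had all above, where 31.1% and 34.2% of all genes tested did. In Usp22-KOB the counts were 9 and 5, where 24% and 25% of all genes did. Between the knockouts, 16 genes had Usp22-KOA wholly below Usp22-KOB and 2 wholly above (27.1% and 31.3% of all genes). In 7 genes both knockouts lay wholly below WT (14.7% of all genes tested), and in 1, Ddx21, both lay wholly above (15%).

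All 5 nucleolar scaffold and regulatory genes were called lower in the mean of both knockouts and in Usp22-KOA, and 2 of 5 in Usp22-KOB. Over all genes tested, 24.1%, 26.9% and 18.4% were called lower in these comparisons. Between the knockouts, 4 of the 5 were lower in Usp22-KOA, where 24.2% of all genes tested were. Npm1 encodes nucleophosmin, the abundant chaperone that organises the outer layer of the nucleolus (chromosome 11, 33152287 to 33163206, GRCm38, protein coding). It was at 835, 849 and 803 TPM in WT, 477, 498 and 480 TPM in Usp22-KOA and 619, 659 and 706 TPM in Usp22-KOB. The groups did not overlap in any pair, with Usp22-KOA lowest and WT highest. The means were 829 ± 23.5, 485 ± 11.2 and 661 ± 43.6 TPM (SD, n = 3 each), which put Usp22-KOA at 58.5% and Usp22-KOB at 79.8% of WT (log2 difference -0.77 ± 0.05 and -0.33 ± 0.05, limma adjusted p = 3.73e-06 and 0.00169), and the knockouts differed by -0.44 ± 0.05 (limma adjusted p = 0.000159).

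Ncl encodes nucleolin, which binds the precursor RNA and nucleolar chromatin (chromosome 1, 86344719 to 86359400). It was at 109, 114 and 106 TPM in WT, 56.1, 58.1 and 52.9 TPM in Usp22-KOA and 93.7, 97.2 and 107 TPM in Usp22-KOB. Usp22-KOA lay far below both other groups, at 50.8% of WT, while Usp22-KOB reached into the WT range. Against WT it changed by -0.97 ± 0.06 in Usp22-KOA, with -0.15 ± 0.06 for Usp22-KOB (limma adjusted p = 2.78e-06 and 0.103), and -0.82 ± 0.06 between the knockouts (limma adjusted p = 1.28e-05), the largest estimated gap between the knockouts among the 32 genes. The 250 bases before its start site are shown because it fell most among the scaffold genes, with CG pairs in capitals (RefSeq, GRCm38.p6). They hold 27 CG pairs, against a median of 10 over the protein-coding genes' windows of that length.
Ncl (chr1:86359456-86359705, - strand): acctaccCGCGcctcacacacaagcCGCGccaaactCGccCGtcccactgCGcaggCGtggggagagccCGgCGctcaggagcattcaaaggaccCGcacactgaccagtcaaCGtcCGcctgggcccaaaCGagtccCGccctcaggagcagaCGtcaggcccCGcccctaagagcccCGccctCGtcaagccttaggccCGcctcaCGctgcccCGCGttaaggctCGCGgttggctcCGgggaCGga

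Nolc1, a phosphoprotein that shuttles snoRNPs through the nucleolus and Cajal bodies, was at 32.5, 34.1 and 31.2 TPM in WT, 22.8, 23.7 and 19.5 TPM in Usp22-KOA and 30, 30.3 and 33.5 TPM in Usp22-KOB. It fell in Usp22-KOA (-0.55 ± 0.08, limma adjusted p = 0.000465), whereas the Usp22-KOB values overlapped WT (-0.058 ± 0.08, limma adjusted p = 0.622). Gnl3, or nucleostemin, a GTP-binding nucleolar protein of proliferating cells, was at 43.6, 41.3 and 41.3 TPM in WT, 33.1, 33.8 and 33.6 TPM in Usp22-KOA and 36.9, 37.9 and 43.2 TPM in Usp22-KOB. Its fall in Usp22-KOA was -0.32 ± 0.07 (limma adjusted p = 0.00297), and Usp22-KOB was not called (-0.097 ± 0.07, limma adjusted p = 0.29). Mybbp1a, a nucleolar protein that represses ribosomal DNA transcription, fell to similar levels in both knockouts, from 106, 105 and 100 TPM in WT to 77.6, 81.8 and 77.4 TPM in Usp22-KOA and 80.7, 83.8 and 93.2 TPM in Usp22-KOB. All 6 knockout values lay below WT (-0.39 ± 0.06 and -0.27 ± 0.06, limma adjusted p = 0.000563 and 0.0084), and the difference between the knockouts, -0.12 ± 0.06, was not called (limma adjusted p = 0.136).

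The subunits of RNA polymerase I had smaller differences. Polr1a, the largest catalytic subunit, was at 22.7, 21.7 and 18.8 TPM in WT, 18.9, 18.3 and 21.3 TPM in Usp22-KOA and 17.4, 17.8 and 22.4 TPM in Usp22-KOB, and the groups overlapped (-0.12 ± 0.10 for both knockouts, limma adjusted p = 0.341). Polr1b, the second catalytic subunit, was at 15.7, 16.2 and 14.8 TPM in WT, 14.1, 14 and 13.9 TPM in Usp22-KOA and 12.4, 13 and 14.3 TPM in Usp22-KOB. All knockout values lay below WT, and the mean of both was called at -0.18 ± 0.06 (limma adjusted p = 0.0381). Polr1c, shared with RNA polymerase III, was at 79.6, 86.3 and 82 TPM in WT, 70.3, 68.7 and 72.8 TPM in Usp22-KOA and 74.8, 69.9 and 78.7 TPM in Usp22-KOB. It fell in Usp22-KOA (-0.22 ± 0.06, limma adjusted p = 0.00953), while Usp22-KOB was at -0.15 ± 0.06 (limma adjusted p = 0.0732). None of the 3 subunits was called between the knockouts, where 51.7% of all genes tested were. The differences of the 3 subunits were 0.028, 0.08 and -0.074.

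Among the box C/D proteins, the 3 core proteins fell in Usp22-KOA, and all 4 genes were lower there than in Usp22-KOB. Fbl encodes fibrillarin, the methyltransferase of the particle (chromosome 7, 28169710 to 28179269). It was at 212, 235 and 210 TPM in WT, 142, 145 and 134 TPM in Usp22-KOA and 210, 217 and 237 TPM in Usp22-KOB. Usp22-KOA stood at 64.1% of WT and below every other sample, while Usp22-KOB covered the WT range at 101%. The differences were -0.64 ± 0.07 and 0.015 ± 0.07 (limma adjusted p = 4e-05 and 0.876), and the knockouts differed by -0.65 ± 0.07 (limma adjusted p = 5.62e-05).

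Nop58 and Nop56, paired core proteins of box C/D particles, both fell in Usp22-KOA. Nop58 was at 98.6, 104 and 93.3 TPM in WT, 54, 56.1 and 55.6 TPM in Usp22-KOA and 81.5, 78.4 and 93.1 TPM in Usp22-KOB. The Usp22-KOA samples held 56.1% of the WT level (-0.82 ± 0.07, limma adjusted p = 1.38e-05), and Usp22-KOB, at 85.6%, was called at -0.22 ± 0.07 (limma adjusted p = 0.035). Nop56 was at 106, 101 and 96.1 TPM in WT, 81.3, 81.5 and 75.5 TPM in Usp22-KOA and 90.6, 83.5 and 101 TPM in Usp22-KOB. It fell in Usp22-KOA (-0.34 ± 0.07, limma adjusted p = 0.00364), with Usp22-KOB at -0.14 ± 0.07 (limma adjusted p = 0.172). The difference of Nop56 between the knockouts, -0.20 ± 0.07, passed narrowly (limma adjusted p = 0.0464). Rrp9, a protein of the U3 particle that cuts the precursor, went another way: it was at 25.4, 25 and 20 TPM in WT, 22.6, 21.2 and 23.2 TPM in Usp22-KOA and 28.1, 25.9 and 29.5 TPM in Usp22-KOB. Every Usp22-KOB sample was above every WT sample, but neither knockout was called against WT (-0.06 ± 0.10 and 0.24 ± 0.10, limma adjusted p = 0.626 and 0.08), and only the difference between the knockouts was (-0.30 ± 0.10, limma adjusted p = 0.0279).

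Box H/ACA particles hold the gene with the largest fall of all 32. Gar1, a glycine- and arginine-rich core protein needed for pseudouridylation (chromosome 3, 129824912 to 129831396), was at 89.3, 113 and 91.9 TPM in WT, 43.2, 41.1 and 49.1 TPM in Usp22-KOA and 54.4, 57 and 61.1 TPM in Usp22-KOB. The 3 groups did not overlap, although WT 2 stood above the other WT samples. The means of 98.1 ± 13.1, 44.5 ± 4.14 and 57.5 ± 3.39 TPM (SD, n = 3 each) put Usp22-KOA at 45.3% and Usp22-KOB at 58.6% of WT, with differences of -1.12 ± 0.10 and -0.75 ± 0.10 (limma adjusted p = 1.88e-05 and 0.000634). Between the knockouts it differed by -0.37 ± 0.10 (limma adjusted p = 0.0147). Its 250 bases before the start site, from RefSeq in GRCm38.p6 with CG pairs in capitals, are shown for comparison with Ncl and hold 25 CG pairs.
Gar1 (chr3:129831397-129831646, - strand): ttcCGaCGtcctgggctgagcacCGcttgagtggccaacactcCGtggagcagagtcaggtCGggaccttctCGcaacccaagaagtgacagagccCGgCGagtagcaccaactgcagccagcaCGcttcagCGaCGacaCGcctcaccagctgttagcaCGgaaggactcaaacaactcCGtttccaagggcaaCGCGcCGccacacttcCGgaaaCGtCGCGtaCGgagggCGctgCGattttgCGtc

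The other H/ACA core proteins had smaller differences than Gar1. Dkc1, or dyskerin, the pseudouridine synthase itself, was at 23.2, 22.8 and 22 TPM in WT, 18, 20.1 and 15.7 TPM in Usp22-KOA and 21, 21.2 and 22.9 TPM in Usp22-KOB. It fell in Usp22-KOA (-0.33 ± 0.09, limma adjusted p = 0.0116) and overlapped WT in Usp22-KOB (-0.06 ± 0.09, limma adjusted p = 0.629). Nhp2, another core protein, was at 137, 157 and 152 TPM in WT, 140, 132 and 118 TPM in Usp22-KOA and 129, 123 and 131 TPM in Usp22-KOB. The mean of both knockouts was called lower at -0.20 ± 0.07 (limma adjusted p = 0.0292) and neither knockout was called alone (limma adjusted p = 0.0578 and 0.0516).

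**Figure D2:**
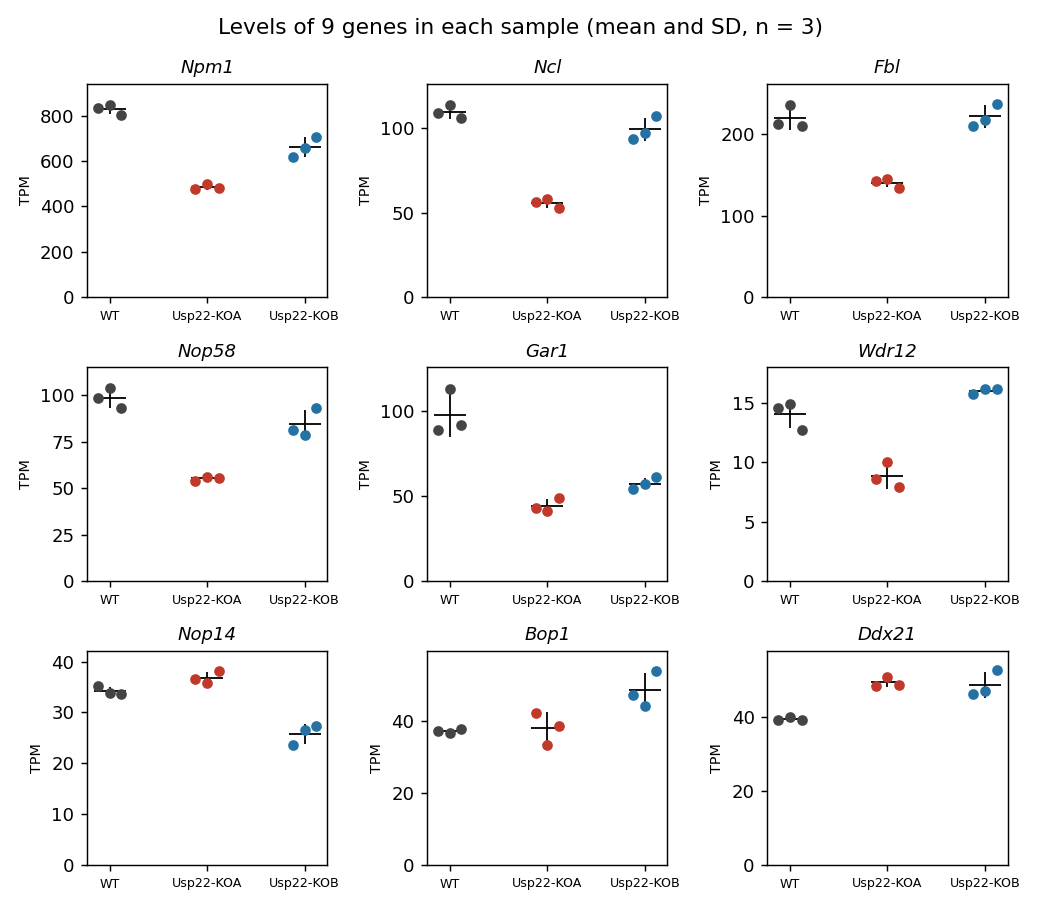
Points are the TPM of 9 genes in each sample of the 3 groups, each with its mean (bar) and SD (n = 3), on axes that start at 0. Gar1 and Npm1 step down from WT to Usp22-KOB to Usp22-KOA, Ncl, Fbl and Wdr12 are low in Usp22-KOA, Nop14 is low in Usp22-KOB, and Ddx21 is higher in both knockouts than in WT.

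The 7 assembly factors of the small subunit showed no common direction: in each knockout 1 rose, while 1 fell in Usp22-KOA and 2 fell in Usp22-KOB. Thus 28.6% of the 7 were called in Usp22-KOA and 42.9% in Usp22-KOB, beside 56.3% and 37.1% of all genes tested. Nop14, which scaffolds the early small subunit precursor (chromosome 5, 34638536 to 34660148), was at 35.2, 33.9 and 33.7 TPM in WT, 36.5, 35.9 and 38.2 TPM in Usp22-KOA and 23.6, 26.5 and 27.4 TPM in Usp22-KOB. Usp22-KOB stood below every other sample at 75.4% of WT (-0.40 ± 0.07, limma adjusted p = 0.00204). Usp22-KOA, at 107%, was not called (0.10 ± 0.07, limma adjusted p = 0.228). Nop14 in Usp22-KOA thus exceeded Usp22-KOB by 0.50 ± 0.07 (limma adjusted p = 0.000317), the reverse of the order in Ncl and Fbl.

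Pno1, which binds the 3′ end of the small subunit RNA before its last cut, was the other gene higher in Usp22-KOA than in Usp22-KOB. It was at 52.2, 48 and 47.8 TPM in WT, 63.4, 58 and 63.9 TPM in Usp22-KOA and 46.8, 51.7 and 52.3 TPM in Usp22-KOB. It rose in Usp22-KOA to 125% of WT (0.32 ± 0.07, limma adjusted p = 0.00325), and Usp22-KOB overlapped WT (0.025 ± 0.07, limma adjusted p = 0.801). In the mean of both knockouts it was called at 0.17 ± 0.06 (limma adjusted p = 0.0363). Tsr1, a late assembly factor that blocks early joining of subunits, was at 40.7, 42.2 and 38.3 TPM in WT, 31.1, 37.1 and 29.6 TPM in Usp22-KOA and 29.9, 30.1 and 37 TPM in Usp22-KOB. All 6 knockout values lay below WT, and each knockout was called near the threshold (-0.31 ± 0.11 and -0.32 ± 0.11, limma adjusted p = 0.0344 and 0.0437).

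Rrp12, a repeat protein of subunit maturation and export, was low in all samples, at 9.13, 8.80 and 8.04 TPM in WT, 8.58, 9.03 and 8.23 TPM in Usp22-KOA and 11.3, 9.78 and 12.9 TPM in Usp22-KOB. It rose in Usp22-KOB (0.34 ± 0.10, limma adjusted p = 0.0291) and stood at 99.5% of WT in Usp22-KOA. Heatr1, Utp20 and Wdr43, components of the small subunit processome, were not called in any of the 4 comparisons. Heatr1 was at 9.46, 8.96 and 8.52 TPM in WT, 8.65, 8.84 and 8.15 TPM in Usp22-KOA and 9.95, 10.7 and 9.29 TPM in Usp22-KOB. Utp20 was at 13.2, 12.8 and 12.4 TPM in WT, 11.7, 12.5 and 12.8 TPM in Usp22-KOA and 12, 12.7 and 15.1 TPM in Usp22-KOB. Their groups overlapped, apart from Heatr1 between the knockouts, where Usp22-KOA lay wholly below Usp22-KOB. Wdr43 was at 38, 35.8 and 34.7 TPM in WT, 32.6, 32.5 and 34 TPM in Usp22-KOA and 31.6, 34.5 and 35.5 TPM in Usp22-KOB, with Usp22-KOA wholly below WT.

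Of the 8 large subunit factors, limma called 0 in the mean of both knockouts, 1 in each knockout alone and 3 between the knockouts. Of all genes tested, 50% were called in the mean of both knockouts, 56.3% in Usp22-KOA, 37.1% in Usp22-KOB and 51.7% between the knockouts. At an unadjusted p under 0.05, 3 of the 8 would be called for both knockouts (Bop1, Nop16 and Wdr12). In that comparison 2 were called after median-of-ratios scaling, 5 after quantile normalization and 4 with array weights. Pes1, Bop1 and Wdr12 form the PeBoW complex, which is needed to process the large subunit RNA, and the 3 did not move alike. Wdr12 (chromosome 1, 60069785 to 60098645) was at 14.5, 14.9 and 12.7 TPM in WT, 8.57, 10 and 7.93 TPM in Usp22-KOA and 15.7, 16.1 and 16.1 TPM in Usp22-KOB. The groups were apart in every pair, with Usp22-KOA at 63% and Usp22-KOB at 114% of WT. The fall in Usp22-KOA was -0.61 ± 0.10 (limma adjusted p = 0.000515), Usp22-KOB was not called (0.18 ± 0.10, limma adjusted p = 0.179), and the knockouts differed by -0.79 ± 0.10 (limma adjusted p = 0.000163).

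Bop1 was at 37, 36.5 and 37.6 TPM in WT, 42.2, 33.2 and 38.5 TPM in Usp22-KOA and 47.2, 44.1 and 53.8 TPM in Usp22-KOB. All Usp22-KOB values lay above all others, and it rose there to 131% of WT (0.37 ± 0.10, limma adjusted p = 0.0161), while Usp22-KOA scattered about WT (0.03 ± 0.10, limma adjusted p = 0.81). Pes1 was at 56.4, 50.9 and 52.3 TPM in WT, 49.5, 49.1 and 49 TPM in Usp22-KOA and 51, 47.7 and 54.5 TPM in Usp22-KOB, and it was not called (limma adjusted p = 0.171 and 0.506). Within PeBoW, then, Usp22-KOB had a called rise in Bop1 alone and Usp22-KOA a called fall in Wdr12 alone.

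Wdr74, a remodelling cofactor of the large subunit precursor, was at 38.2, 37.6 and 37.9 TPM in WT, 34.3, 29.4 and 33.5 TPM in Usp22-KOA and 45.3, 35 and 46.9 TPM in Usp22-KOB, and was called only between the knockouts (-0.37 ± 0.11, limma adjusted p = 0.0183). Rrs1, which helps bring the 5S particle into the large subunit, was at 34.6, 36.2 and 35.1 TPM in WT, 42.1, 40.4 and 36.1 TPM in Usp22-KOA and 35.3, 37.6 and 37.1 TPM in Usp22-KOB. Neither knockout was called for Rrs1 (limma adjusted p = 0.0752 and 0.57). Nop2, an RNA methyltransferase, Nop16 and Nip7, early and late assembly factors, were not called in any comparison. Nop2 was at 44.1, 43.8 and 37.6 TPM in WT, 41.3, 39.1 and 37.7 TPM in Usp22-KOA and 35.3, 39.1 and 42.1 TPM in Usp22-KOB. Nop16 was at 35, 35.8 and 30.8 TPM in WT, 31, 27.4 and 30.5 TPM in Usp22-KOA and 28.4, 30.8 and 31.7 TPM in Usp22-KOB. Nip7 was at 28.5, 26.9 and 25 TPM in WT, 25.9, 25.9 and 23.9 TPM in Usp22-KOA and 21.6, 24.2 and 25.6 TPM in Usp22-KOB. In these last 3 genes most knockout values lay within or just below the WT range.

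The helicases moved in opposite directions in Usp22-KOA. Ddx21 unwinds RNA in the nucleolus and promotes ribosomal DNA transcription (chromosome 10, 62580251 to 62602281). It was the only one of the 32 genes called higher in both knockouts. It was at 39.3, 40 and 39.3 TPM in WT, 48.5, 50.8 and 48.7 TPM in Usp22-KOA and 46.2, 47.1 and 52.8 TPM in Usp22-KOB. The WT samples lay within a TPM of each other and all 6 knockout samples above them, at 125% and 123% of WT (0.31 ± 0.06 and 0.29 ± 0.06, limma adjusted p = 0.00196 and 0.00574). Ddx18, a helicase of large subunit assembly, was at 40, 43.9 and 40.9 TPM in WT, 30.6, 32.7 and 30.8 TPM in Usp22-KOA and 39.6, 39.5 and 47.8 TPM in Usp22-KOB. It fell in Usp22-KOA (-0.40 ± 0.08, limma adjusted p = 0.00268) and spread about WT in Usp22-KOB (0.019 ± 0.08, limma adjusted p = 0.879). The bases before the start site of Ddx21 are shown as those of a gene that rose, marked as above (RefSeq, GRCm38.p6), and they hold 25 CG pairs, as many as those of Gar1.
Ddx21 (chr10:62602299-62602548, - strand): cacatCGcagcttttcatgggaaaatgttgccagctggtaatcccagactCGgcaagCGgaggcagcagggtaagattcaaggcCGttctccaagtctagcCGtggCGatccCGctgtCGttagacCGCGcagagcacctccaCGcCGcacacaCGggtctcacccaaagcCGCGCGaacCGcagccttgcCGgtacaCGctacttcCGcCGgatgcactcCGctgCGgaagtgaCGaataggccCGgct

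**Figure D3:**
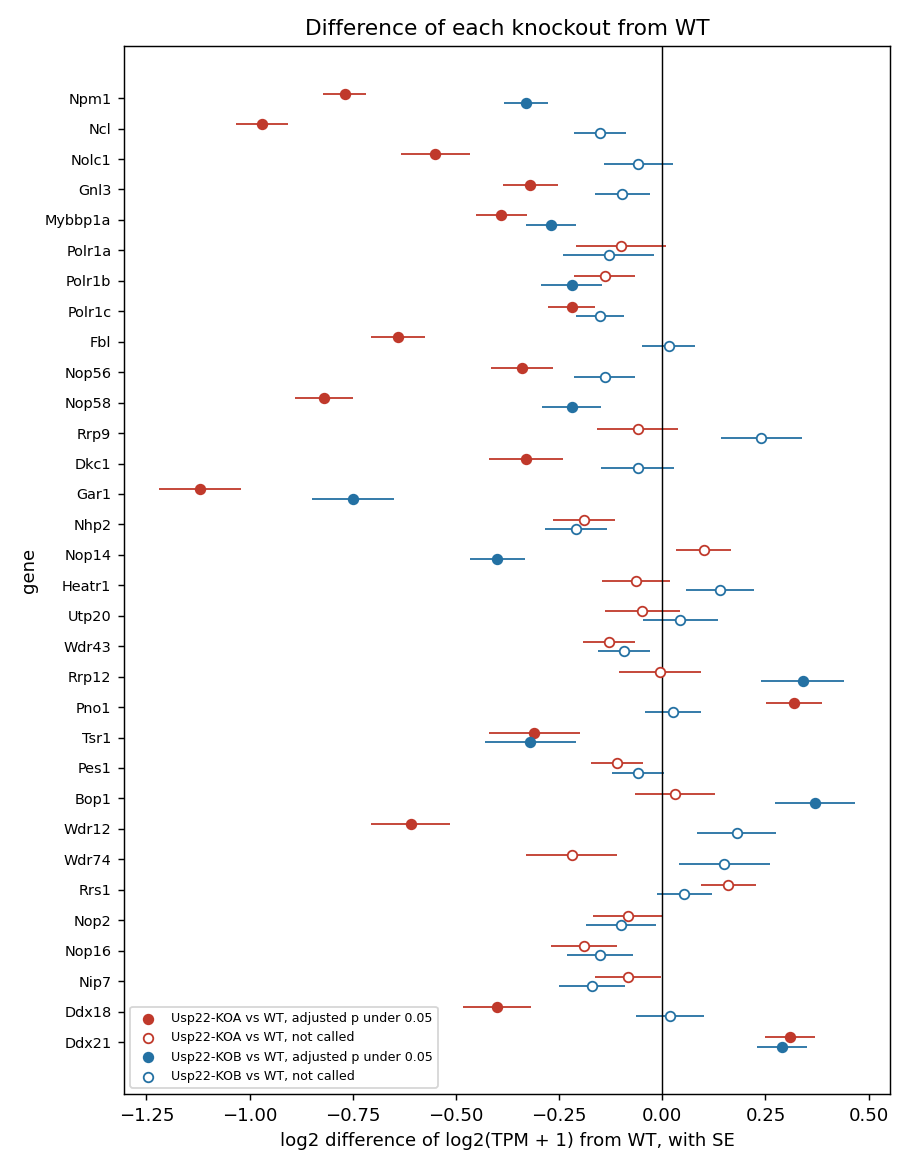
Log2 differences of log2(TPM + 1) from WT (x axis, points, with SE as lines) for the 32 genes in Usp22-KOA (red) and Usp22-KOB (blue), filled where the limma adjusted p was under 0.05. Gar1, Ncl, Nop58 and Npm1 reach furthest to the left in Usp22-KOA, only Gar1 passes -0.5 in Usp22-KOB, and Ddx21 lies to the right in both.

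By pattern of calls against WT, 5 genes fell in both knockouts (Npm1, Mybbp1a, Nop58, Gar1 and Tsr1) and Ddx21 rose in both. In Usp22-KOA 9 more genes fell that were not called in Usp22-KOB: Ncl, Nolc1, Gnl3, Polr1c, Fbl, Nop56, Dkc1, Wdr12 and Ddx18. Of these 9, 8 were also called lower in the direct comparison with Usp22-KOB, the exception being Polr1c. In Usp22-KOB 2 genes fell (Polr1b and Nop14) and 2 rose (Rrp12 and Bop1) that were not called in Usp22-KOA. Neither knockout had a call for 12 of the 32. Taken singly, lower calls made up 26.9% of the whole tested set for Usp22-KOA, while Usp22-KOB had 18.4%. Higher calls made up 29.4% and 18.7%. Joint patterns were not counted over that whole set, so whether their counts among the 32 are unusual was not tested. When all 6 knockout samples formed a single group, so that the gap between the knockouts counts as spread, 4 genes were lower (Npm1, Mybbp1a, Gar1 and Tsr1) and 1 higher (Ddx21), and the calls of Ncl, Nolc1, Gnl3, Polr1b, Polr1c, Fbl, Nop56, Nop58, Nhp2 and Pno1 ended.

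Some calls rested on single samples. Without 1 sample, the calls for both knockouts were lost for Gnl3 and Nop56 (without WT 1), Polr1c (WT 2), Tsr1 (WT 1 or WT 2), Nhp2 (WT 2, WT 3 or Usp22-KOB 2), Pno1 (6 of 9 fits, all but those without WT 1, Usp22-KOA 2 or Usp22-KOB 1) and Polr1b (7 of 9, all but WT 3 and Usp22-KOB 3), at limma adjusted p from 0.0521 to 0.142. In Usp22-KOA only Tsr1 was lost (WT 1, WT 2, Usp22-KOA 1 or Usp22-KOA 3, limma adjusted p from 0.0824 to 0.107). In Usp22-KOB, Polr1b was lost in 7 fits (all but WT 3 and Usp22-KOB 3), Tsr1 in 6 (all but Usp22-KOA 2, Usp22-KOA 3 and Usp22-KOB 3), Nop58 in 5 (WT 1, WT 2, Usp22-KOA 2, Usp22-KOB 1 or Usp22-KOB 2) and Rrp12 in 5 (any WT sample, Usp22-KOB 1 or Usp22-KOB 3), at limma adjusted p from 0.0506 to 0.139. Between the knockouts, Nop56 was lost in 8 fits (all but Usp22-KOB 2), Dkc1 in 5 (Usp22-KOA 1, Usp22-KOA 3 or any Usp22-KOB sample), Rrp9 in 4 (Usp22-KOA 1, Usp22-KOA 2, Usp22-KOB 1 or Usp22-KOB 3), Rrp12 in 3 (Usp22-KOA 3, Usp22-KOB 1 or Usp22-KOB 3), Wdr74 in 3 (Usp22-KOA 2, Usp22-KOB 1 or Usp22-KOB 3), Gnl3 without Usp22-KOA 1, and Gar1 and Bop1 without Usp22-KOA 2, at limma adjusted p from 0.0501 to 0.137.

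The pathway was also read in 140 other genes of ribosome biogenesis, in 5 lists by step. Of these, 39 fell and 18 rose in the mean of both knockouts (27.9% and 12.9%), with a median of -0.031. Over all genes tested, 24.1% fell and 25.9% rose. In Usp22-KOA 27.1% of the 140 fell and 17.9% rose, beside 26.9% and 29.4% of all genes. In Usp22-KOB 15% fell and 5.71% rose, beside 18.4% and 18.7%. Between the knockouts, 21.4% were lower and 17.1% higher in Usp22-KOA, beside 24.2% and 27.5%, with a median of 0.0032. In the mean of both knockouts, the list of snoRNP assembly and RNA modification factors was nearest to the 32 genes. It had 7 of 18 lower, 1 higher and a median of -0.09. In Usp22-KOA 7 were lower and 1 higher, and in Usp22-KOB 2 were lower and 1 higher. In that list, Znhit6 and Ruvbl2, factors that assemble box C/D particles, changed by -0.59 ± 0.06 and -0.57 ± 0.06 in the mean of both knockouts (limma adjusted p = 4.87e-05 and 5.46e-05). Snu13, the fourth core protein of those particles, changed by -0.32 ± 0.06 in that mean (limma adjusted p = 0.00177). Snu13 fell in Usp22-KOA (-0.50 ± 0.07, limma adjusted p = 0.000226) and was not called in Usp22-KOB (-0.14 ± 0.07, limma adjusted p = 0.125). Npm3, a relative of Npm1, stood at 80.2 ± 5.27 TPM in WT, against 58.4 ± 1.74 in Usp22-KOA and 89.6 ± 2.10 in Usp22-KOB (SD, n = 3 each), and differed between the knockouts by -0.61 ± 0.06 (limma adjusted p = 4.17e-05). In the exosome list, which trims ribosomal RNA, 5 of 17 fell and 1 rose, and the nuclease Dis3 changed by -0.54 ± 0.07 (limma adjusted p = 0.000274).

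Of the 18 RNA polymerase I and associated genes outside the 32, 7 fell and 3 rose in the mean of both knockouts. Usp22-KOA had 6 lower and 4 higher, and Usp22-KOB 3 lower and 1 higher. Taf1a, a subunit of the factor that brings the polymerase to ribosomal DNA, and Cd3eap, a polymerase subunit, changed by -0.55 ± 0.10 and -0.54 ± 0.06 in that mean (limma adjusted p = 0.00217 and 0.000128). Taf1a changed by -0.92 ± 0.12 in Usp22-KOA and was not called in Usp22-KOB (-0.18 ± 0.12, limma adjusted p = 0.281). Cd3eap was called in both, at -0.84 ± 0.07 and -0.25 ± 0.07 (limma adjusted p = 1.46e-05 and 0.0261). Tcof1, the treacle protein of the nucleolus, was at 23.8 ± 2.22 TPM in WT, against 13.7 ± 0.828 in Usp22-KOA and 25.2 ± 0.368 in Usp22-KOB (SD, n = 3 each), a gap of -0.84 ± 0.08 between the knockouts (limma adjusted p = 4.28e-05). In the mean of both knockouts, small subunit factors were evenly split, with 8 of 43 lower and 7 higher. Rcl1 changed there by -0.49 ± 0.07, Ltv1 by 0.39 ± 0.05 and Utp18 by 0.32 ± 0.05 (limma adjusted p = 0.000555, 0.000336 and 0.000674). Utp3, a processome protein, had a gap of Usp22-KOA over Usp22-KOB of 1.06 ± 0.07 (limma adjusted p = 3.68e-06). Large subunit factors counted 12 of 44 lower and 6 higher in the mean of both knockouts. Ppan and Nifk changed by -0.41 ± 0.07 and -0.38 ± 0.06 in that mean (limma adjusted p = 0.00116 and 0.00048). In the same list Sbds, which releases a late factor from the large subunit, went from 91.3 ± 3.16 TPM in WT to 195 ± 10.6 in Usp22-KOA and 124 ± 3.17 in Usp22-KOB (SD, n = 3 each). That is a rise of 0.76 ± 0.05 in the mean of both knockouts (limma adjusted p = 3.04e-06).

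**Figure D4:**
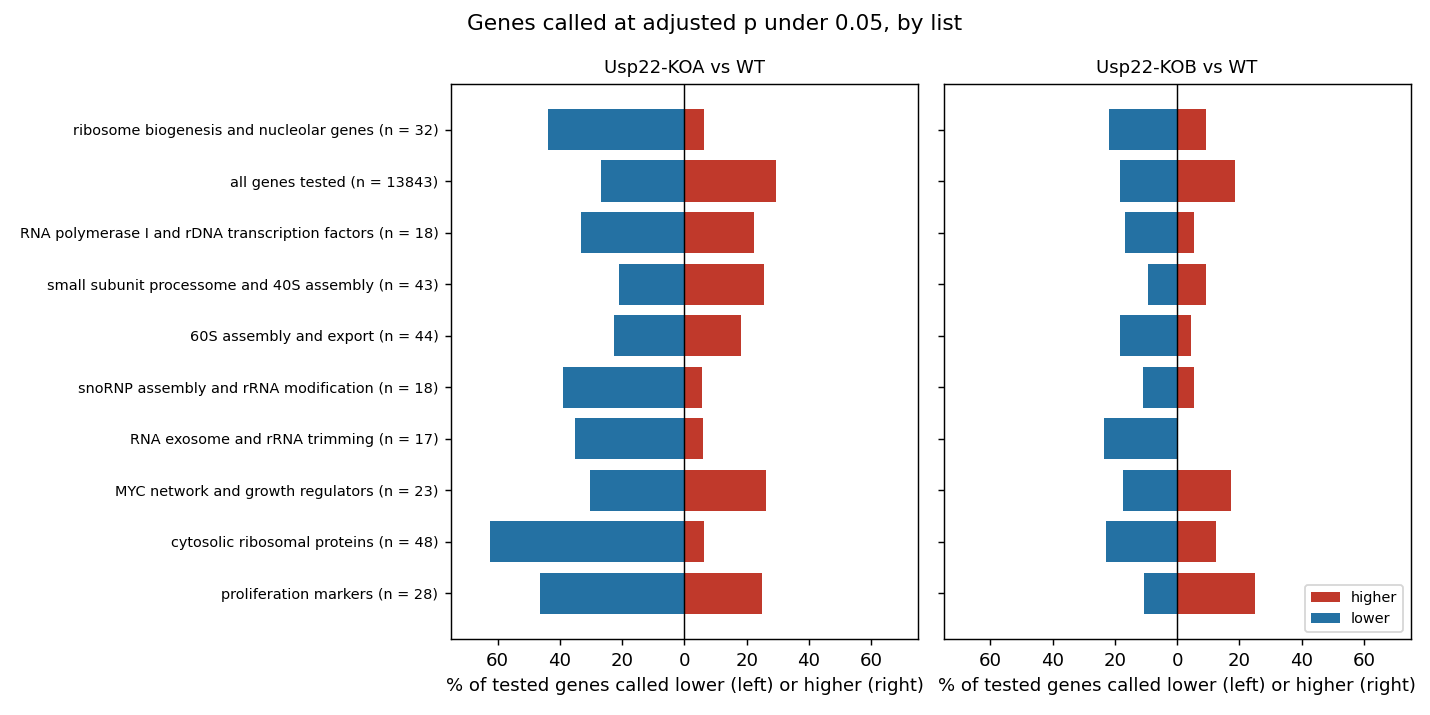
Bars give the percentage of tested genes of each list (with its n) called lower (left) or higher (right) at a limma adjusted p under 0.05, in Usp22-KOA against WT and in Usp22-KOB against WT. Of the 32 genes 43.8% were lower and 6.25% higher in Usp22-KOA, beside 26.9% and 29.4% of all genes tested, and in Usp22-KOB 21.9% were lower and 9.38% higher, beside 18.4% and 18.7%.

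Myc, the transcription factor known to drive this program, was at 53.3, 45 and 44.9 TPM in WT, 32.8, 31.2 and 29.6 TPM in Usp22-KOA and 54.9, 56.9 and 65.8 TPM in Usp22-KOB. It fell in Usp22-KOA (-0.59 ± 0.09, limma adjusted p = 0.000504) and rose in Usp22-KOB (0.31 ± 0.09, limma adjusted p = 0.0287), with the 3 groups apart, and the knockouts differed by -0.90 ± 0.09 (limma adjusted p = 6.28e-05). Mycn, its relative, fell from 25.1 ± 3.44 TPM in WT to 0.959 ± 0.124 in Usp22-KOA and 2.23 ± 0.434 in Usp22-KOB (SD, n = 3 each; -3.73 ± 0.14 and -3.02 ± 0.14, limma adjusted p = 1.32e-07 and 1.48e-06). In the list of MYC network and growth regulators as a whole, 7 of 23 fell and 7 rose in the mean of both knockouts. Whether Myc or Mycn has a part in the levels of the 32 genes was not tested.

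Cytosolic ribosomal protein genes, the products that biogenesis factors assemble, counted 30 of 48 lower and 3 higher in Usp22-KOA and 11 lower and 6 higher in Usp22-KOB, with medians of -0.24 and -0.018. Their summed level was 100244 to 105503 TPM in WT, against 84175 to 85769 in Usp22-KOA and 94965 to 101045 in Usp22-KOB. Of 28 proliferation markers, 13 were lower and 7 higher in Usp22-KOA and 3 lower and 7 higher in Usp22-KOB. Their medians were -0.12 and 0.11, and the summed level was 800 to 866 TPM in WT, against 748 to 838 in Usp22-KOA and 864 to 971 in Usp22-KOB. The replication helicase gene Mcm6 was at 55.4 ± 1.13, 29 ± 2.91 and 49.5 ± 2.09 TPM, while Rrm2, a ribonucleotide reductase subunit, was at 33.5 ± 2.39, 70.3 ± 3.14 and 51.2 ± 2.40 TPM in WT, Usp22-KOA and Usp22-KOB (SD, n = 3 each). The part of proliferation in the levels of the 32 genes was not tested.

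By annotation (GENCODE M21, GRCm38), 7 of the 32 genes hold snoRNA genes on their own strand: Ncl, Gnl3, Nop56, Nop58, Dkc1, Wdr43 and Tsr1. In Usp22-KOA 6 of these 7 fell, with a median of -0.33, against 8 of the other 25, with a median of -0.11. In Usp22-KOB the counts were 2 of 7 and 5 of 25 (28.6% and 20%). Over all genes tested, 26.9% were lower in Usp22-KOA and 18.4% in Usp22-KOB. Of all 200 tested protein-coding genes that hold a snoRNA gene, 36% were lower in Usp22-KOA and 25.5% higher, with a median of -0.071. In Usp22-KOB 20.5% of the 200 were lower and 13.5% higher. The split of the 32 genes was made after the values were seen and is a description. Bodies of 12 of the 32 genes overlap another protein-coding gene (Nop56 with Idh3b, Pno1 with Wdr92 and Bop1 with Mroh1 and Scx, for example), and since the sources used here do not say whether counting used strand, reads of such pairs may not have been told apart.

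The E-box CACGTG, the sequence that MYC binds with its partner MAX, was searched in RefSeq promoter windows of 300 bases, 250 before to 50 after the start site (GRCm38.p6). The motif reads the same on both strands. Windows were found for 27 of the 32 genes, and 7 of them held it, 25.9%, where 11.4% of 10507 tested genes with a window and 8.91% of all 17491 protein-coding genes did. The 30 bases about each are shown because they are the only such matches, 5′ to 3′ on the gene's strand with the motif in capitals. In 6 genes the motif lies after the start site, and in Nop2 its first base is 60 before it.
Nop2 (chr6:125131811-125131840, + strand): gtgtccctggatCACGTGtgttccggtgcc
Utp20 (chr10:88826765-88826794, - strand): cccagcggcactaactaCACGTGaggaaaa
Pes1 (chr11:3963965-3963994, + strand): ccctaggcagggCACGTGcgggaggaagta
Pno1 (chr11:17211540-17211569, - strand): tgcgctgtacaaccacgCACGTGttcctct
Mybbp1a (chr11:72441347-72441376, + strand): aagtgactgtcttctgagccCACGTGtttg
Tsr1 (chr11:74898092-74898121, + strand): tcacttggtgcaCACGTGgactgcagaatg
Wdr43 (chr17:71616220-71616249, + strand): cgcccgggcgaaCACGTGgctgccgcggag

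Of these 7 genes, Mybbp1a and Tsr1 fell and Pno1 rose in Usp22-KOA, and the other 4 were not called there. Of the 20 genes with a window and no CACGTG, 10 fell and 1 rose in Usp22-KOA, Gar1, Ncl and Nop58 among the falls. These are 28.6% lower and 14.3% higher with the motif, and 50% and 5% without it. Of all genes tested, 26.9% were called lower and 29.4% higher in Usp22-KOA. In Usp22-KOA the median was -0.11 with the motif and -0.22 without, and in Usp22-KOB -0.093 with it and -0.14 without. A match in these windows is not a bound site, and no match says only that the letters are not there.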

How the data were processed

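RNA of 9 samples was measured, 3 each of WT, Usp22-KOA and Usp22-KOB. The values are TPM in 1 table that the authors deposited. The submitters' processing notes name mm10, Salmon and DESeq2. What each was used for, its version and the transcript models were not given in the sources used here. All 9 columns matched 1 sample each by label.

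A pseudocount of 1 was added to the deposited TPM before taking log2. The 13843 of 24493 genes that averaged 1 TPM or more entered 1 limma fit with a mean per group and an intensity trend. All 9 samples share 1 estimate of the spread. P-values were Benjamini-Hochberg adjusted over all genes tested, and a gene was called under 0.05. The comparisons were both knockouts, each knockout and the knockouts against each other, and Usp22 had an exact permutation test. The fit was tested on simulated data.

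The 32 genes, the 8 gene lists and the 7 marker lists were chosen with earlier results of these data known. Named genes outside the 32 are Usp22, Myc, in each list up to 3 genes lowest in adjusted p for both knockouts and up to 2 between the knockouts, and the most abundant gene of a marker list. Not every gene that the rule selects is printed. The split by snoRNA genes, the markers Epcam, Muc1, Krt19, Cpa3, Tpsb2, Cma1, Fcer1a and Ncr1, and the examples of overlapping genes were chosen after values were seen. Alternatives tried were a pseudocount of 0.1 or 5, testing all genes or those averaging 5 TPM or more, median-of-ratios scaling, quantile normalization, limma without trend or with array weights, a replicate block, the 6 knockout samples as 1 group, only the groups compared, and each sample left out. Fits ran in limma 3.58.1 under R 4.3.3, and tables and plots in Python 3.11.15 with scipy 1.17.1, numpy 2.4.6, pandas 2.3.3 and matplotlib 3.10.9. Identity between paralog proteins was not analysed here. No count model was applied, since TPM are not counts.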

Additional observations from a re-analysis of the deposited data

Results flagged for a closer look

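In 17 of the 32 genes the effect of Usp22-KOA differed from that of Usp22-KOB in the direct comparison of the knockouts (limma, Benjamini-Hochberg adjusted p under 0.05). Where Usp22-KOA was the lower of the pair, the log2 differences were -0.82 (Ncl), -0.79 (Wdr12), -0.65 (Fbl), -0.60 (Nop58), -0.49 (Nolc1), -0.44 (Npm1), -0.42 (Ddx18), -0.37 (Gar1), -0.37 (Wdr74), -0.35 (Rrp12), -0.34 (Bop1), -0.30 (Rrp9), -0.27 (Dkc1), -0.22 (Gnl3) and -0.20 (Nop56). Nop14 and Pno1 were higher in Usp22-KOA, by 0.50 and 0.29. In 9 of the 17, Npm1, Ncl, Nolc1, Fbl, Nop58, Nop14, Pno1, Wdr12 and Ddx18, the call held in each of the 9 fits that leave out 1 sample. Over all genes tested, 51.7% were called in this comparison.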

How the results depend on the processing

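Depth is unknown, so no counting error can be given. For both knockouts against WT, 6920 genes were called, and 2946 with the 6 knockout samples as 1 group, where 4 of the 32 genes were lower and 1 higher. Lower calls among the 32 numbered 22 by quantile normalization and 20 with array weights, a fit whose weights did not converge, and higher calls 1 by quantile normalization, without trend and with the replicate block. In Usp22-KOB lower calls numbered 11 by quantile normalization, 15 with array weights and 4 with the replicate block. The median in Usp22-KOA was -0.27 by quantile normalization, and between the knockouts it was -0.075 with array weights. Why these moved was not tested. The replicate block lost 10 calls: Polr1b, Nhp2 and Pno1 for both knockouts, Tsr1 in each knockout, Polr1b, Nop58 and Rrp12 in Usp22-KOB, and Nop56 and Dkc1 between the knockouts. Deviations from the group means correlated between -0.125 and 0.276 in same-numbered samples and between -0.235 and 0.201 in the others. With 3 samples a group, this cannot decide whether the numbers pair the samples.

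Leaving out each sample in turn, lower and higher calls among the 32 ranged from 9 to 16 and 1 to 3 for both knockouts, 13 to 15 and 2 to 3 in Usp22-KOA, 4 to 11 and 2 to 4 in Usp22-KOB, and 10 to 14 and 2 to 2 between the knockouts. All genes called ranged from 5555 to 7401, 6946 to 8224, 3725 to 5615 and 5912 to 7393, and medians of the 32 from -0.20 to -0.15, -0.22 to -0.15, -0.14 to -0.050 and -0.18 to -0.095. Usp22 ranged from -2.27 to -2.12.

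Each change of sign was in a difference that was not called. By median-of-ratios scaling these were Utp20 for both knockouts (0.0040) and Tsr1 between the knockouts (-0.0038). By quantile normalization they were Heatr1, Rrp12 and Bop1 in Usp22-KOA (0.0014, 0.064, -0.080), Fbl, Pno1 and Ddx18 in Usp22-KOB (-0.023, -0.0021, -0.032), and Nhp2, Tsr1, Nop2 and Ddx21 between the knockouts (-0.092, -0.034, -0.057, -0.056). With array weights they were Rrp12 and Bop1 in Usp22-KOA (0.0053, -0.0070), Fbl, Utp20, Wdr74 and Ddx18 in Usp22-KOB (-0.014, -0.011, -0.052, -0.060), and Pes1 between the knockouts (0.024). Leaving out 1 sample gave changes of sign over these ranges: for both knockouts Utp20 -0.048 to 0.030, Rrp9 -0.015 to 0.15 and Wdr74 -0.078 to 0.025; in Usp22-KOA Rrp12 -0.052 to 0.030 and Bop1 -0.048 to 0.12; in Usp22-KOB Fbl -0.034 to 0.068, Ddx18 -0.070 to 0.064, Utp20 -0.046 to 0.11 and Pno1 -0.0036 to 0.075; and between the knockouts Nhp2 -0.030 to 0.093, Nop2 -0.044 to 0.080, Tsr1 -0.083 to 0.11, Nop16 -0.076 to 0.022, Polr1a -0.036 to 0.14, Ddx21 -0.015 to 0.079 and Wdr43 -0.080 to 0.0011.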
